A study of Mus musculus with 278 samples.

Results

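The proteasome subunit genes were read in single mouse epidermal cells from co-cultures of WT keratinocytes and cells with an inducible beta-catenin. Members were all genes whose symbol is Psma, Psmb, Psmc or Psmd followed by a number, together with Psme1, Psme2, Psme3 and Psme4. These rules found 42 of the 14145 genes of the expression table. Psmd2, which also fits the rule by name, was not analysed here. All groups came from mixtures of 9 parts WT and 1 part K14ΔNβ-cateninER cells, in which the Krt14 promoter drives a stabilised beta-catenin that responds to 4-hydroxy-tamoxifen (4OHT). Untreated co-cultures were grown without 4OHT and treated co-cultures with 200 nM 4OHT for 24 h. The library names fall into 2 series, AG and GHA501A, each with untreated and treated cells. There were 66 AG untreated, 64 AG treated, 71 GHA501A untreated and 69 GHA501A treated cells, or 270 in all. Another 8 cells, whose library name and treatment label disagree, entered only as an alternative. Cells of a set are not independent replicates of a treatment, so that the 4 sets served as samples. Transgenic cells were not told apart from WT cells.

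The proteasome degrades proteins tagged with ubiquitin. Its 20S core is a barrel of alpha rings (Psma genes) around beta rings (Psmb genes), in which Psmb5, Psmb6 and Psmb7 encode the constitutive catalytic subunits. The 19S regulator caps the barrel, with the ATPases of the Psmc genes unfolding substrates and the Psmd genes encoding mostly lid and base subunits. Interferon induces the immunoproteasome subunits Psmb8, Psmb9 and Psmb10, which replace Psmb5, Psmb6 and Psmb7 in turn, and the PA28 activator made of Psme1 and Psme2, and these favour peptides for MHC class I. Keratinocytes make this machinery as most cells do, and Psma8 and Psmb11 encode subunits known from testis and thymus.

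Values are TPM, in which read counts are divided by transcript length and scaled to a sum of 1000000 in every cell, so that genes and cells can be compared but the depth behind a value is unknown. The median cell had between 6008 and 6392 genes with TPM over 1, depending on the set. The 2 series differed in the cells they held. By a score, all AG cells were keratin-high (mean log2(TPM + 1) of Krt5, Krt14 and Krt15 above that of Col1a1, Col1a2 and Col3a1), against 8 of 71 and 13 of 69 cells in the GHA501A sets, the others being collagen-high. Of the 7 keratinocyte markers in the table, 6 had a median over 1 TPM in both AG sets, against 1 and 2 in the untreated and treated GHA501A sets, where Krt15, Cdh1, Dsp and Lama3 had a median of 0. Itgb4 had a median of 0 in all 4 sets. The label of keratinocytes is therefore not borne out by markers for most GHA501A cells. The summed keratinocyte markers ranged from 726 to 17048 TPM over AG untreated, from 454 to 28280 TPM over AG treated, from 0 to 7002 TPM over GHA501A untreated and from 0 to 17207 TPM over GHA501A treated cells. The 4 fibroblast markers in the table, of 8 listed, all had a median of 0 in AG cells. They summed to a median of 1427 and 1066 TPM in GHA501A. Dcn had a median of 0 there too, and the 3 others, Col1a1, Col1a2 and Col3a1, are the collagens of the score. The cell cycle genes summed to a median of 504 and 420 TPM in AG and 2186 and 1633 TPM in GHA501A. The series also differed in genes that all cells use. Rps27a averaged 2.56 and 3.43 TPM in the AG sets and 836 and 795 TPM in the GHA501A sets, and of 75 ribosomal protein genes 8 were over 8-fold lower in both AG sets and 3 in both GHA501A sets. Whether this came from the libraries, their quantification or the cells cannot be told apart.

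Transcripts of proteasome subunits were abundant and nearly even over the sets. Of the 42 members, 41 had TPM over 1 in more than 5 cells and entered the tests, while Psma8 was found in 1 cell of each AG set and listed at 0 in GHA501A. The 41 members were detected in most cells of every set, and 24 of them in over 90%. The mean level over the sets had a median of 203 TPM among them, beside 14.6 TPM over the 12355 genes kept. All 41 lay above that median of all genes, and 26 lay over 100 TPM, where 13.02% of all kept genes lie. Between the highest and the lowest set, 37 members varied less than 2-fold, beside 25.6% of all kept genes. The most even was Psmc5, an ATPase of the 19S base, with 504, 484, 488 and 499 TPM in AG untreated, AG treated, GHA501A untreated and GHA501A treated cells.

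**Figure D1:**
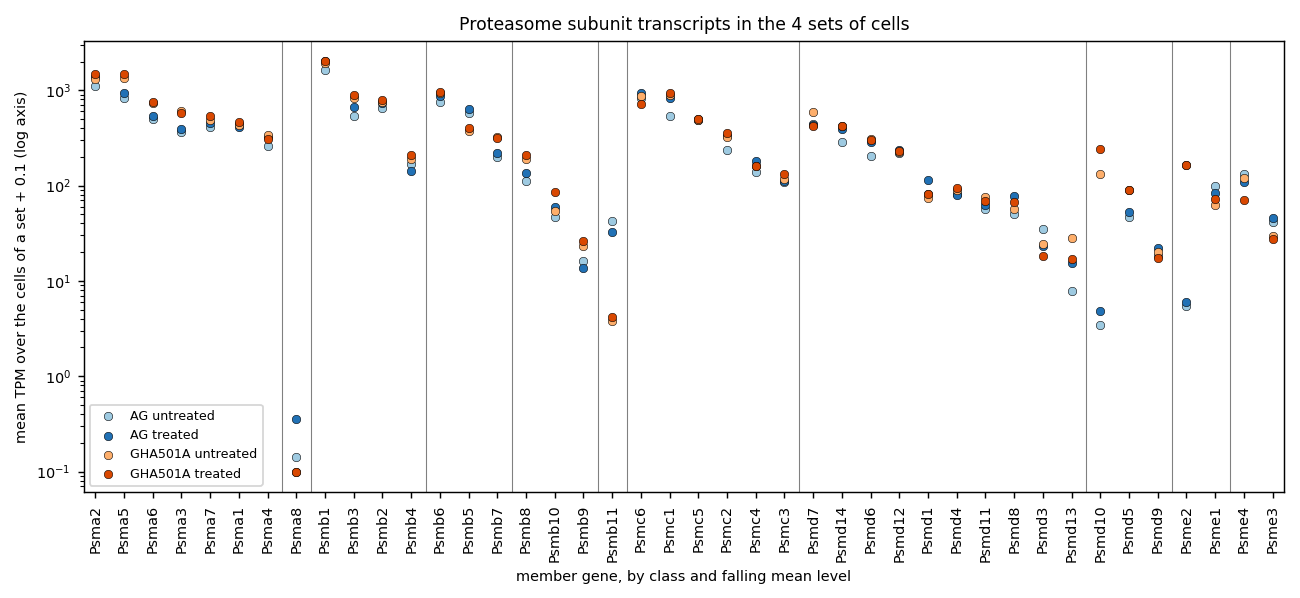
Mean TPM of the 42 members over the cells of each set, plus 0.1, on a log axis, with members grouped by class and ordered by falling mean level (lines separate classes; points are the 4 sets). Points of a gene nearly coincide for most members, whereas Psmd10, Psme2 and Psmb11 split by series.

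Summed over the 42 members, the median cell held 13396 TPM in AG untreated, 15496 in AG treated, 16019 in GHA501A untreated and 17444 in GHA501A treated cells. The means made up 1.28%, 1.49%, 1.62% and 1.67% of all transcripts. Within each set the cells were spread over a wider range than the sets, for example from 4568 to 24185 TPM in GHA501A untreated and from 3538 to 24744 TPM in GHA501A treated cells. In both series the treated set lay above the untreated set in the median, and the lowest cell of each AG set, at 1981 and 1084 TPM, lay below the lowest of each GHA501A set, at 4568 and 3538 TPM.

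**Figure D2:**
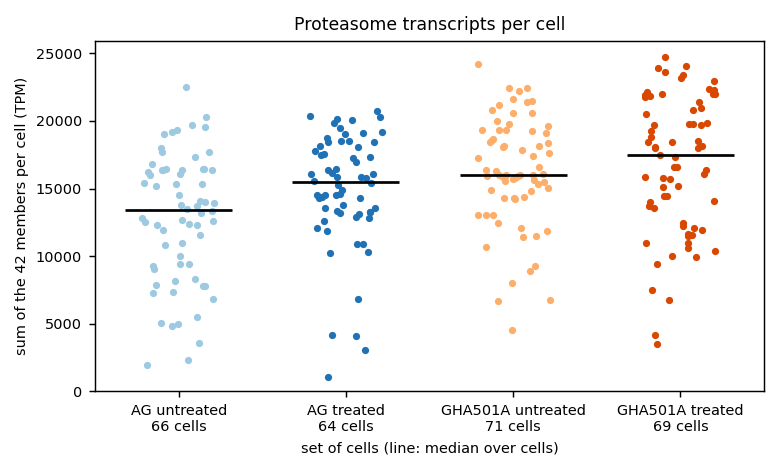
Sum of the 42 members in each cell (TPM, linear axis from 0), with 1 point per cell, the 4 sets side by side and a line at the median. The medians lie between 13396 and 17444 TPM, and the points of the 4 sets overlap over most of the range.

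The classes kept a similar order in all sets. The alpha ring (7 genes apart from Psma8) accounted for 30.5%, 29.9%, 32.4% and 33.5% of the summed member TPM in AG untreated, AG treated, GHA501A untreated and GHA501A treated cells. The 6 ATPases of the 19S base accounted for 18.3%, 19.3%, 17.5% and 16.8%. The 10 non-ATPase 19S subunits among the members leave out Psmd2, Sem1 and Adrm1. They took a smaller share than the 6 ATPases in every set, at 11.4%, 11.5%, 11.6% and 10.3%. Subunits of a particle that holds them in equal number thus had unequal transcript levels. In the alpha ring Psma2 was highest, at 1318 ± 155 TPM, and Psma4 lowest, at 309 ± 33.7 TPM (SD, n = 4 sets). Among the beta subunits without a catalytic site, Psmb1, the highest of all members, had 1901 ± 172 TPM and Psmb4 178 ± 29.7 TPM (SD, n = 4 sets). Psmc6 had 838 ± 93.96 TPM and Psmc3 117 ± 10.2 TPM among the ATPases (SD, n = 4 sets). Among the non-ATPases, Psmd7, a scaffold of the lid, had 472 ± 77.8 TPM and Psmd13, another lid subunit, 17.0 ± 8.31 TPM (SD, n = 4 sets), a 27.8-fold range within 1 class. In GHA501A untreated cells 1 cell held 1025 TPM of Psmd13, and the mean of that set was 27.9 TPM with it and 13.7 TPM without it. Psmd10 (gankyrin), Psmd5 and Psmd9 help to assemble the 19S base and are not part of the finished particle. Psmd9 was the lowest of these, at 19.3 ± 2.11 TPM (SD, n = 4 sets).

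The spread over the cells of a set was below that of other abundant genes on the linear scale, but not on the log scale in every set. The coefficient of variation (SD over mean of TPM) of members over 100 TPM had a median of 0.758, 0.578, 0.680 and 0.708 in AG untreated, AG treated, GHA501A untreated and GHA501A treated cells. For the other genes over 100 TPM it was 1.04, 0.858, 0.872 and 1.03. The SD of log2(TPM + 1) had a median of 2.46, 2.04, 1.47 and 1.85 over these members, beside 2.36, 2.06, 1.76 and 2.09 over the other such genes. Psma3, an alpha ring subunit, had the lowest coefficient of variation among members in each set. No test over cells was made, since cells are not replicates.

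The catalytic genes show the balance between the constitutive and the immune form, and promoter windows of both forms are shown here because their control is known to differ. The windows run from 250 bases before to 50 after the start site in RefSeq (GRCm38.p6). The window of Psmb5 was chr14:54617946-54618245 on the minus strand and that of Psmb6 was chr11:70525107-70525406 on the plus strand. Psmb8 and Psmb9 are neighbours on chromosome 17, with windows at chr17:34197945-34198244 on the plus strand and chr17:34187281-34187580 on the minus strand. Capitals mark matches, on either strand, to GAAA repeated after a gap of 2 bases (a core of interferon regulatory factor sites), TTCNNNGAA (the STAT site of interferon gamma), TGACNNNGC (a core of antioxidant response elements), CCAAT and GGGCGG (the GC box).
Psmb5 promoter window: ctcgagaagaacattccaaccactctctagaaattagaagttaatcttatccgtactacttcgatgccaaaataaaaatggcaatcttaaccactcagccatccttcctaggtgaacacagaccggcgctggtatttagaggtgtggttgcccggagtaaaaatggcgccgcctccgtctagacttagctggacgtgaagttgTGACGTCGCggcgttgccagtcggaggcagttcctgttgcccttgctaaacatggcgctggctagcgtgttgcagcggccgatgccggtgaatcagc
Psmb6 promoter window: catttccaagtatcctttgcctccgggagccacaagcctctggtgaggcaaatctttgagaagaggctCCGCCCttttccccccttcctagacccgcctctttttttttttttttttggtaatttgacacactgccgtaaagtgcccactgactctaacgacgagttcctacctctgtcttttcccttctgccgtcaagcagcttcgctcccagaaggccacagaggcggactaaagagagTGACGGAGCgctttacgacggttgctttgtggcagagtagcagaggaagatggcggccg
Psmb8 promoter window: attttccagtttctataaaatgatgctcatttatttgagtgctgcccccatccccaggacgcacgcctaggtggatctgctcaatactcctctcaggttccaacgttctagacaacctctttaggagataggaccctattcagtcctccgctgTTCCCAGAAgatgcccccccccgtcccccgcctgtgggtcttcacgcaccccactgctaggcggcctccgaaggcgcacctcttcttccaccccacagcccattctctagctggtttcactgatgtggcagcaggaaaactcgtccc
Psmb9 promoter window: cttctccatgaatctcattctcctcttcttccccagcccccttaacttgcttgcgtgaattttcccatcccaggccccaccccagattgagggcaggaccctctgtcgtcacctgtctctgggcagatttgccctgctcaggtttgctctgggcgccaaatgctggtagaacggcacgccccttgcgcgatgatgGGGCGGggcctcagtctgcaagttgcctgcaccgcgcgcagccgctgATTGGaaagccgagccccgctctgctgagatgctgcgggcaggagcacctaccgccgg
Of 35 members with a window, 4 hold the repeat of GAAA (Psmb3, Psmd4, Psmd9 and Psme1), beside 3.44% of all 32851 windows. TTCNNNGAA occurs in 1 member window, that of Psmb8, and in 8.30% of all windows. TGACNNNGC occurs in 6 member windows, among them those of Psmb5 and Psmb6, and in 12.4% of all windows. GGGCGG occurs in 21 of the 35 member windows, beside 35.7% of all windows, and CCAAT in 14, beside 37.4%. A match describes the letters only.

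Constitutive catalytic transcripts exceeded immune ones in every set and at every catalytic position. At the beta5 position, with chymotrypsin-like activity, Psmb5 averaged 580, 631, 369 and 404 TPM in AG untreated, AG treated, GHA501A untreated and GHA501A treated cells. Its immune counterpart Psmb8 averaged 111.3, 136.6, 188.8 and 207 TPM. Psmb5 had its higher levels in AG and Psmb8 its higher levels in GHA501A, where it still lay below Psmb5. Psmb8 made up 16.1% and 17.8% of this pair in AG and 33.9% and 33.8% in GHA501A cells. At the beta1 position, with caspase-like activity, Psmb6 averaged 748, 874, 944 and 950 TPM. Psmb9 averaged 15.97, 13.6, 22.9 and 25.999 TPM, the lowest of the immune subunits in every set, and made up 2.09%, 1.54%, 2.37% and 2.66% of the pair. At the beta2 position, with trypsin-like activity, Psmb7 averaged 199, 220, 320 and 317 TPM. Psmb10 averaged 46.99, 59.2, 54.01 and 85.03 TPM, or 19.1%, 21.2%, 14.5% and 21.1% of the pair. The share of Psmb8, Psmb9 and Psmb10 in the TPM of all 6 genes was 10.2%, 10.8%, 14.004% and 15.98%, with a mean of 12.8% ± 2.70 (SD, n = 4 sets). It was higher in the treated set by 0.581 percentage points in AG and by 1.97 in GHA501A, both less than the SD over the sets. With 2 sets a treatment an exact permutation test cannot pass 0.05.

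**Figure D3:**
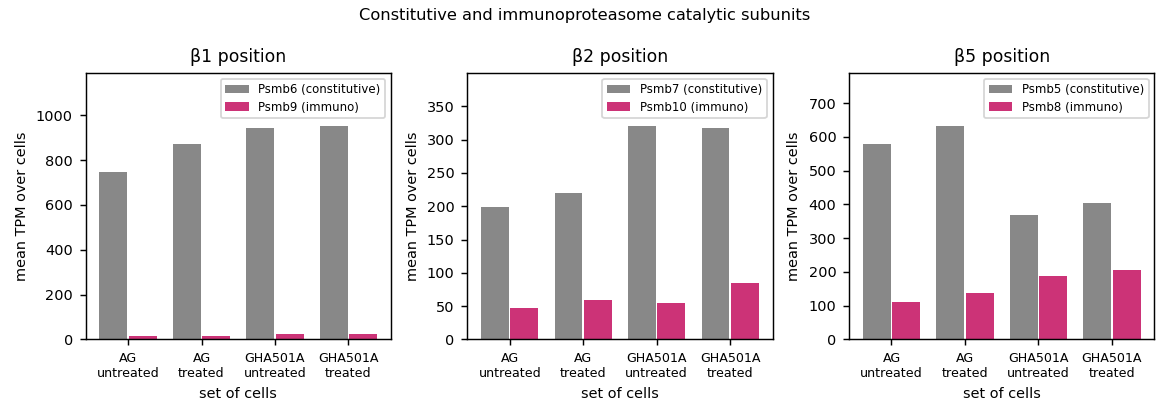
Mean TPM over cells of the constitutive (grey) and the immune (pink) subunit at the beta1, beta2 and beta5 positions in the 4 sets (bars from 0, no error bars, since each bar is 1 set). The immune bar is the lower of each pair, and comes closest to the constitutive one at the beta5 position in GHA501A, where Psmb8 makes up 33.9% and 33.8%. The Psmb5 level is uncertain, since its transcript has near-identical copies.

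Single cells held both forms. Psmb8, Psmb9 and Psmb10 were all detected in 35 of the AG untreated, 38 of the AG treated, 45 of the GHA501A untreated and 41 of the GHA501A treated cells. None of the 3 was detected in 7, 5, 1 and 0 cells. The per-cell share of immune transcripts in catalytic TPM had a median of 8.87%, 9.24%, 14.2% and 13.8%. Psmb8 exceeded Psmb5 in 21 of 71 GHA501A untreated and 23 of 69 GHA501A treated cells, and in 6 of 59 AG untreated and 3 of 62 AG treated cells with either gene. These counts share the uncertainty of the Psmb5 level.

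The activator genes fell into different patterns. Psme1 averaged 97.7, 84.4, 62.4 and 71.3 TPM in AG untreated, AG treated, GHA501A untreated and GHA501A treated cells. Psme2, which encodes its partner in PA28, averaged 5.31, 5.92, 163.8 and 163.2 TPM. Psme1 averaged more in AG and Psme2 more in GHA501A, the latter by a far wider gap. Psme3, the nuclear PA28 gamma, averaged 41.5, 45.5, 29.5 and 27.5 TPM, and Psme4 (PA200) averaged 133.1, 109.9, 119.6 and 70.7 TPM. A stretch of 82.5% of the longest Psme2 transcript is at least 95% identical to Psme2b, a gene that was not analysed here, and reads with several matches were discarded. Its level is uncertain for that reason, as are those of Psmb5, Psmb3, Psmc1, Psma5, Psma4 and Psmd11, for which over 50% of the transcript has such a copy.

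Treated and untreated sets were compared with limma, with the series as a block. The sets differ in 4OHT itself, transgenic cells were not told apart, and most GHA501A cells were collagen-high. An effect of activated neighbours on keratinocytes was therefore not tested apart from these. Of 41 members, 0 were called at an adjusted p under 0.05 and a log2 fold change past 0.5, and the background was 0% higher and 0% lower among all 12355 genes. At an unadjusted p under 0.05 there were 0 members and 459 genes in all. The log2 difference was above 0 in 32 members, with a median of 0.09, beside 49.9% of all genes and a median of -0.00. The median of the members was 0.23 with the mean of log2(TPM + 1) over cells. It was -0.05 without AG untreated and 0.28 without GHA501A untreated cells, in fits with no block, which mix treatment with series. The difference was above 0 in both series for 19 members, below 0 in both for 3 and of opposite sign for 19. In the fit over both series all 7 alpha ring genes were above 0, with a median of 0.10. So were all 3 constitutive catalytic genes, with a median of 0.12, and none of either class passed the test. Within a series, Psma1 differed by -0.09 in AG, and Psma3, Psma4 and Psmb7 by -0.07, -0.12 and -0.01 in GHA501A. The members with the largest differences of 1 direction were Psmd10, Psme4 and Psmd3. Psmd10 averaged 3.38, 4.71, 133.2 and 239 TPM in AG untreated, AG treated, GHA501A untreated and GHA501A treated cells, a difference of 0.61 (standard error 0.343, 95% interval -0.30 to 1.52, limma adjusted p 0.998). Psme4 differed by -0.51 (interval -1.43 to 0.40), with -0.27 in AG and -0.75 in GHA501A. Psmd3, a 19S lid subunit, averaged 34.98, 22.98, 24.2 and 18.2 TPM and differed by -0.49 (interval -1.36 to 0.38). The immune subunits Psmb8, Psmb9 and Psmb10 differed by 0.21, -0.02 and 0.49, and the constitutive Psmb5, Psmb6 and Psmb7 by 0.13, 0.12 and 0.07. The fit left 1 residual degree of freedom, and changes within these intervals were not detectable with 4 sets. The p-values measure only the spread between these sets, which may be technical.

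**Figure D4:**
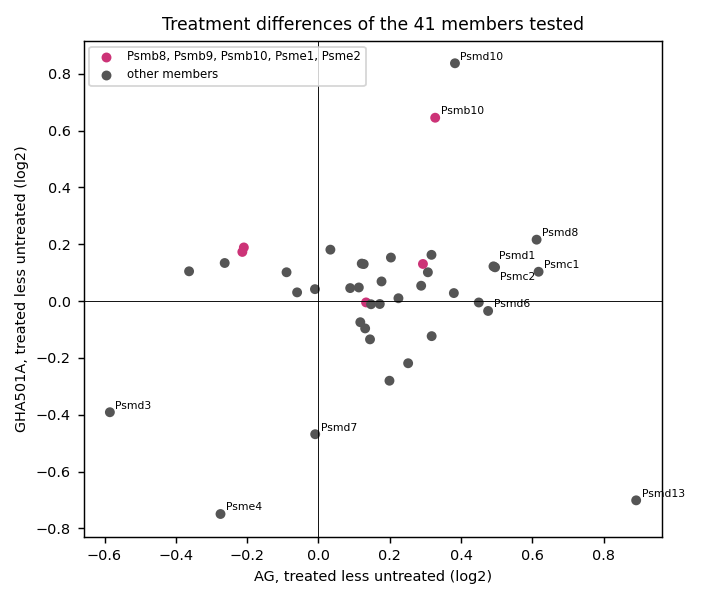
Treated less untreated difference in log2(mean TPM + 1) of the 41 members tested in AG (horizontal) and GHA501A (vertical), with 1 point per gene and the interferon-linked genes in pink. Of the points, 19 lie above 0 in both series and 19 in quadrants of opposite sign, the farthest being Psmd13 at 0.89 and -0.70, which is 0.28 in GHA501A without 1 cell.

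Other genes of the pathway gave the same count of calls. Of 28 genes in 5 lists (assembly factors and inhibitor of the core, other 19S subunits and deubiquitinases, ubiquitin and E1 enzymes, regulators of proteasome transcription, and interferon response with antigen presentation) 0 were called between treated and untreated sets, and 2 had an unadjusted p under 0.05 (limma).

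Between the series, 3 members were called. For the others the intervals were wide, for example -1.70 to 0.04 for Psmd5, and likeness was not tested. Of 41 members, 1 was called higher in AG, beside 10.8% of all 12355 genes, and 2 lower, beside 18.2%. The absolute log2 difference had a median of 0.32 over members and of 0.82 over all genes. The fitted difference was below 0 in 30 members, with a median of -0.19, beside -0.01 over all genes. It was below 0 in both the untreated and the treated sets for 24 members, above 0 in both for 7 and of opposite sign for 10. Psmd10 was lower in AG by a log2 fold change of -5.16 (standard error 0.343, limma adjusted p 0.0019). Without the AG untreated or the AG treated set, in a fit with no block, its limma adjusted p was 0.064 and 0.058, with differences of -4.97 and -5.36. Psme2 was lower in AG by -4.64 (standard error 0.327, limma adjusted p 0.0020). Psmb11, the thymus-specific catalytic subunit, averaged 42.4, 32.7, 3.72 and 4.07 TPM and was higher in AG by 2.97 (standard error 0.344, limma adjusted p 0.0053). Psmd10 and Psme2 were over 8-fold lower in both AG sets, as were 1582 of the 12355 kept genes. Psmb11 was over 8-fold lower in both GHA501A sets, as were 747 of the kept genes. Psme2 was detected in 63.6% and 82.8% and Psmd10 in 54.5% and 71.9% of AG cells, against 100% and 97.1% and 95.8% and 94.2% of GHA501A cells. Unlike Psme2, Psmd10 has no near-identical copy in the annotation. In Psmb11, 9.42% of the longest transcript has near-identical stretches in 41 other genes. Whether the reads counted for Psmb11 came from that gene was not tested. Psmb8 was lower in AG by -0.68 (interval -1.55 to 0.19) and Psmb5 higher by 0.65 (interval -0.22 to 1.51), and neither passed. With the mean of log2(TPM + 1) over cells in place of the log2 of the mean, 8 members were called, adding Psme1, Psme3 and Psme4 as higher in AG and Psmb8 and Psma5 as lower, while the calls over all genes went from 1333 higher and 2247 lower to 2889 higher and 2650 lower.

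Psmd10 and Psme2 were called also among keratin-high cells, a class set by the score, with 8 GHA501A untreated and 13 GHA501A treated cells. With keratin-high cells of both series only, where 3.93% of 11841 genes were called higher and 8.83% lower in AG, Psmd10 differed by -4.70 (limma adjusted p 0.013) and Psme2 by -4.63 (limma adjusted p 0.014). Psmb11 differed by 2.98 (limma adjusted p 0.053). In GHA501A, Psme2 averaged 123.6 and 213 TPM in the keratin-high and 168.9 and 151.7 TPM in the collagen-high cells of the untreated and treated set. Among keratin-high cells Psmb8 was higher in AG by 0.82 (limma adjusted p 0.420), against a difference of -0.68 with all cells, a change of direction.

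Of the 28 pathway genes, 4 were called higher in AG, beside 10.8% of all genes, and 9 lower, beside 18.2%. Usp14, a deubiquitinase on the 19S particle, averaged 1.64 and 2.56 TPM in AG and 86.97 and 113.7 TPM in GHA501A. Psmg4, a chaperone of the alpha ring, averaged 1.43 and 2.06 against 79.004 and 94.99 TPM, and Psmg3, its partner, 28.8 and 34.2 against 10.5 and 11.3 TPM. Rps27a, which encodes ubiquitin fused to a ribosomal protein, was lower in AG by -7.68, and the E1 enzyme Uba1 was lower by -4.34. Nfe2l1, whose product induces proteasome genes, and Ddi2, the protease that activates it, were lower by -3.49 and -2.57, and Ngly1, which deglycosylates it, was higher by 2.84. Of the antigen presentation list Irf1, Tap1 and Nlrc5 were lower by -6.42, -3.18 and -1.84. Usp14, Psmg4 and Uba1 averaged under 3 TPM in both AG sets, and Irf1, Tap1, Nlrc5, Nfe2l1 and Ddi2 under 1 TPM, so that the size of their differences depends on the pseudocount. In addition, 80.03% of the longest Rps27a transcript has near-identical copies. The part of quantification in these calls was not tested.

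Within GHA501A, keratin-high and collagen-high cells of the same sets were compared within 1 series. Of 41 members, 0 were called in either direction, beside 1.04% of 11090 genes higher and 0.893% lower in keratin-high cells, and 1 member, Psmb8, had an unadjusted p under 0.05. The log2 difference had a median of 0.05 over members and of -0.16 over all genes. The 3 immune subunits were lower in keratin-high cells of both sets, without passing the test. Psmb8 averaged 51.2 and 94.2 TPM in the 8 and 13 keratin-high cells and 206 and 233 TPM in the 63 and 56 collagen-high cells of the untreated and treated set, a difference of -1.64 (standard error 0.547, limma adjusted p 0.257). Psmb9 averaged 4.33 and 17.5 against 25.3 and 27.98 TPM, a difference of -1.48 (limma adjusted p 0.374). Psmb10 differed by -0.74 (limma adjusted p 0.635) and the lid subunit Psmd13 by -1.11 (limma adjusted p 0.445), or by 0.0092 with the mean of log2(TPM + 1) over cells. The immune share of catalytic TPM was 4.16% and 8.39% in keratin-high and 15.3% and 17.98% in collagen-high cells, and at the beta5 position it was 11.3% and 10.8% against 36.1% and 42.3%. The AG cells, all keratin-high, had 16.1% and 17.8% there. At the beta1 position of GHA501A cells the immune share was 0.37% and 1.69% in keratin-high against 2.69% and 2.91% in collagen-high cells. At the beta2 position it was lower in keratin-high cells of the untreated set but higher in the treated set, at 24.3% against 20.6%. Of the 8 genes for interferon response and antigen presentation 7 were below 0 in the same comparison, with a median of -1.14 and 0 called. Among the 28 pathway genes 0 were called, and 2 had an unadjusted p under 0.05 (limma). The cut on the keratin and collagen scores is a range of cells, with 4 cells of each GHA501A set within 2 of it.

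Over the cells of a set, members correlated with each other and with abundant genes in general. The mean of the members had an r of 0.97, 0.96, 0.84 and 0.91 with the mean of other genes of high level in AG untreated, AG treated, GHA501A untreated and GHA501A treated cells. The mean Pearson r over the 820 pairs of members was 0.34 in AG untreated, 0.41 in AG treated, 0.14 in GHA501A untreated and 0.17 in GHA501A treated cells. As Spearman rho it was 0.26, 0.21, 0.10 and 0.13, and without the 3 AG treated cells under 4000 genes the r of that set was 0.29. For the 30 members with a mean log2(TPM + 1) over 5 it was 0.42, 0.53, 0.23 and 0.25, beside 0.17, 0.21, 0.05 and 0.05 among the 1621 other genes of that level. Of the 820 pairs, 543 had an r above 0 in all 4 sets, or 66.2%. The same share over pairs of other genes was not computed. The closest pair was Psma2 and Psma6, both in the alpha ring, with an r of 0.77, 0.74, 0.43 and 0.54. The points of each r are cells of 1 set, which differ in the number of genes detected. The mean of the members correlated with that number at 0.90 and 0.87 in AG but at 0.10 and 0.23 in GHA501A. After a linear fit on the number of genes detected, the mean r of these 30 members was 0.13, 0.23, 0.23 and 0.25, beside 0.03, 0.04, 0.04 and 0.04 for the other genes. With the cell cycle score the members' mean had an r between -0.13 and 0.18.

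**Figure D5:**
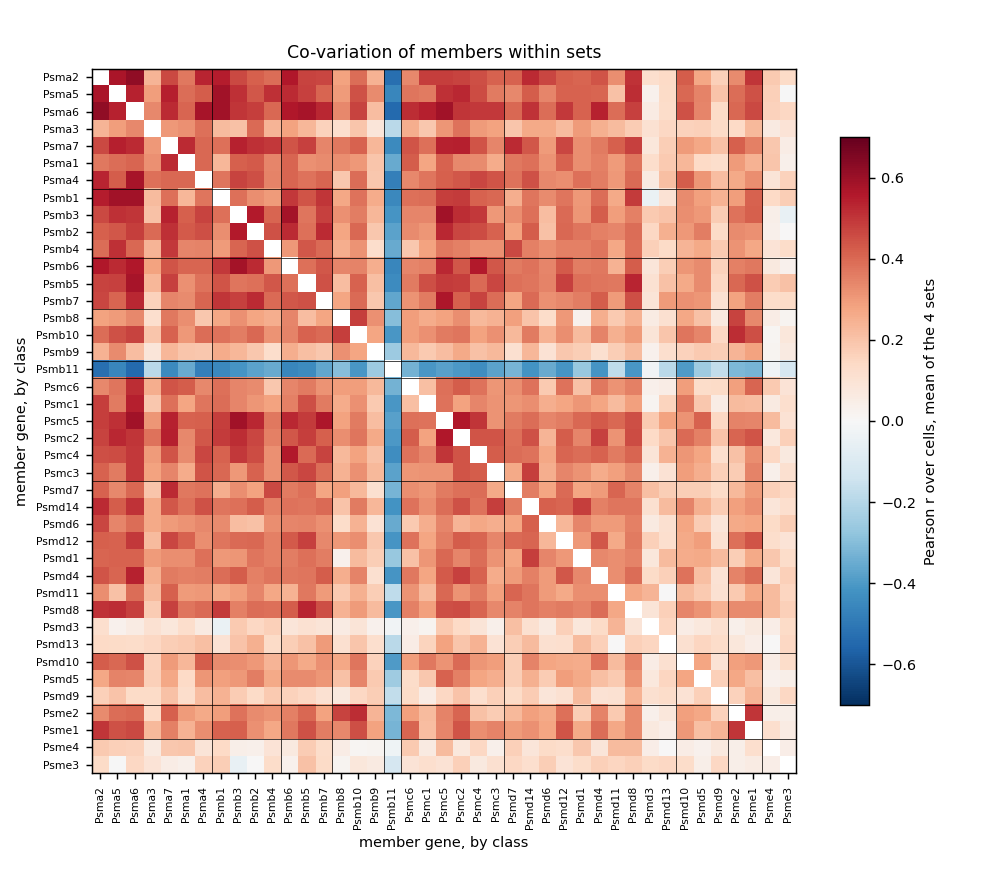
Pearson r of log2(TPM + 1) over cells for each pair of the 41 members, averaged over the 4 sets, with genes ordered by class and lines between classes (red above 0, blue below 0, diagonal left blank). Most pairs are above 0, Psmb11 is below 0 with all other members, and Psme3, Psme4, Psmd3 and Psmd13 are paler than most.

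In this paragraph the r values were taken without a fit on the number of genes detected. The members' mean correlated with that number at 0.90 and 0.87 in AG but at 0.10 and 0.23 in GHA501A. Contrasts between the series in these values cannot be told apart from it. The standard core was taken as a group first. Among the 14 genes Psma1 to Psma7 and Psmb1 to Psmb7 the mean r was 0.52, 0.54, 0.34 and 0.31, and between these and the 19 Psmc and Psmd genes it was 0.42, 0.50, 0.21 and 0.24. The Psmc and Psmd genes had 0.32, 0.44, 0.15 and 0.19 among themselves. With the mean of the other members, Psma6 had the highest r, at 0.85, 0.81, 0.74 and 0.67, followed by Psma2 and the ATPase Psmc5. The mean r among Psmb8, Psmb9 and Psmb10 was 0.47, 0.51, 0.26 and 0.20, and among Psmb5, Psmb6 and Psmb7 it was 0.69, 0.45, 0.37 and 0.18. Between the immune and the constitutive subunits it was 0.48, 0.44, 0.09 and 0.16, with the lowest value in GHA501A untreated cells. Psmb5 and Psmb8, alternatives at 1 position, had an r of 0.48, 0.51, -0.07 and -0.05. Psme1 and Psme2 had an r of 0.47, 0.66, 0.49 and 0.38, also in the AG sets where Psme2 was low. With B2m, H2-K1 and H2-D1, the antigen presentation genes of high level, the mean r was 0.18, 0.35, 0.13 and 0.22 for the immune subunits and 0.16, 0.32, -0.08 and 0.02 for the constitutive ones. The differences between these values were not tested.

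Psmb11 was the only 1 of 41 members with an r below 0 with the others in every set. Its r with the mean of the other members was -0.77, -0.64, -0.48 and -0.52, and -0.72, -0.70, -0.50 and -0.65 after a fit on the number of genes detected. Among 12314 other genes, 12 had a mean r with the members at or below that of Psmb11, or 0.0975%, and 6.33% were below 0 in all 4 sets. Psmb11 was detected in all AG cells, with a median of 29.1 and 17.1 TPM in the untreated and treated set, and in 69.01% of GHA501A untreated and 66.7% of GHA501A treated cells. It lies at chr14:54621433, near Psmb5 on the other strand, and 9.42% of its longest transcript has near-identical stretches in 41 other genes. The low correlation of Psme3, with an r of 0.55, 0.27, -0.10 and -0.15, and of Psme4, with 0.12, 0.52, -0.15 and 0.15, was shared by the lid subunit Psmd3, with 0.17, 0.49, 0.02 and -0.13.

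Among the 1621 other genes of high level, those most like the mean of the members were Prdx6, a peroxidase, with a mean r over the 4 sets of 0.79, Uqcrc1, of respiratory complex III, with 0.76, Ywhae, a 14-3-3 protein, with 0.76, Golt1b, of Golgi transport, with 0.75, and Ndufa8, of respiratory complex I, with 0.73. The median over these genes was 0.36, and 5% lay above 0.63. These values were taken without a fit on the number of genes detected. The members' mean correlated with that number at 0.90 and 0.87 in AG and at 0.10 and 0.23 in GHA501A, and its part was not tested.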

How the data were processed

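Single cells were captured on a C1 chip and their cDNA was sequenced. Per the study's methods and the submitters' processing notes, reads went through FastQC and cutadapt and were mapped with TopHat (GRCm38). The authors kept only reads with a single match, summed them per gene by featureCounts and deposited TPM values. Versions are not given in the sources used here. Cells with a label numbered 278 of 294, and 16 columns that match no label were not used. Per the study's methods, capture sites were imaged and those with doublets or dead cells were left out, and no further doublet calling was done here. Groups came from the labels and series from the library names. Members and gene lists were chosen with earlier results of these data known.

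A gene was kept if more than 5 of the cells had over 1 TPM. The mean TPM of each set was taken as log2(TPM + 1), a pseudocount of 1, which understates changes of low genes. The 4 sets entered limma (version 3.58.1, under R 4.3.3; lmFit and eBayes, two-sided), with treatment and series as terms and Benjamini-Hochberg adjustment over all genes tested. The series is the only block: each series holds 1 untreated and 1 treated set. Calls needed an adjusted p under 0.05 and a log2 fold change past 0.5. Since the labels do not say that sets are separate cultures of other animals, p-values measure only the spread between these sets. Keratin-high and collagen-high cells of GHA501A were compared likewise with set as a block, in classes of at least 5 cells. Correlations were taken over the cells of each set. Named genes were all catalytic and Psme members, the highest and lowest of each class, members and pathway genes called, otherwise the 3 largest of 1 direction, and the 5 genes most like the members. Psmb11, Psmc5, Psma3, Psma6 and further members named for their spread or correlation were singled out after their values were seen. Near copies came from blastn 2.17.0+ of the longest GENCODE M21 transcripts (95% identity, hits of at least 100 bases). Of the 42 members, 12 share exon bases with another gene, and whether the counting used strand is not given in the sources used here. Promoters were from RefSeq, with 35 of 42 members matched. The fits and correlations were tested on simulated data. Levels and figures were computed in pandas 2.3.3 and matplotlib 3.10.9 under Python 3.11.15. Some genes of the pathway lists are counted but not reported here by name. Alternatives are given in the closing section.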

Additional observations from a re-analysis of the deposited data

Results flagged for a closer look

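Psmd13, a subunit of the 19S lid, had treatment differences of opposite sign in the 2 series. Its log2(mean TPM + 1) was higher in treated than in untreated cells by 0.89 in AG and differed by -0.70 in GHA501A. With 1 set of each condition in a series the difference between the series was not tested. The sign in GHA501A rests on 1 untreated cell with 1025 TPM, beside 147 TPM in the next. Without it, an alternative chosen after seeing the data, the mean of the untreated set went from 27.9 to 13.7 TPM, beside 16.8 TPM in the treated set, and the difference was 0.28.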

How the results depend on the processing

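Treated less untreated, 0 members were called under all 11 alternatives, and for keratin-high less collagen-high cells 0 under all 7, although there the count over all genes moved from 214 to 0 with a pseudocount of 0.1 or with no filter and to 588 with the mean of log2 values. The 3 members called between the series became 8 with the mean of log2(TPM + 1) over cells, and 2 to 3 with 1 set left out and no block, where the set alone in its series is taken to vary like the others. Psmd10 passed with all sets but had an adjusted p of 0.064 without AG untreated and 0.058 without AG treated cells (limma), within a range of 0.00033 to 0.064 over 12 alternatives. Without the replicate block (series or treatment, or set for the cell classes) 0, 3 and 0 members were called for treatment, series and cell class, the same counts as with it. Over all genes the calls between the series went from 3580 to between 1023 and 2229 with 1 set left out, to 1511 in keratin-high cells and to 5539 with the mean of log2 values. The Psmd10 treatment difference of 0.61 became -1.86 without AG untreated and -2.09 without GHA501A treated cells, with a range of -2.09 to 3.31 over the sets left out, where the fit without the block mixes treatment with series. The difference of Psmd13 between keratin-high and collagen-high cells became 0.0092 with the mean of log2 values, and its treatment difference in GHA501A became 0.28 without 1 cell, an alternative chosen after seeing the data. The median treatment difference of the members, 0.09, ranged from -0.05 to 0.28 with 1 set left out, in the same fits without the block, which mix treatment with series. The immune share, 12.8% over the 4 sets, ranged from 11.5% to 12.9% under 3 alternatives. The mean r of member pairs, 0.27 over the sets, was 0.18 as Spearman rho, 0.14 after the fit on genes detected (0.09 in AG untreated cells), and 0.23 with cells of at least 4000 genes. For GHA501A it was 0.16, and 0.10 in keratin-high cells alone, where the untreated set gave 0.03. The cause of these changes was not tested. The depth behind each TPM value is unknown.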
